A study of Mus musculus with 40 samples.

Results

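The hepatic expression of 10 genes of the integrated stress response and the unfolded protein response was followed across a TCDD dose response. The genes were given as a list of symbols and matched to gene identifiers, and all 10 were found among the 55359 identifiers of the count tables and among the 15373 genes with enough counts to be tested. They were Atf4 (ENSMUSG00000042406), Atf3 (ENSMUSG00000026628), Ddit3 (ENSMUSG00000025408) and Xbp1 (ENSMUSG00000020484), which encode transcription factors; Asns (ENSMUSG00000029752), Trib3 (ENSMUSG00000032715), Chac1 (ENSMUSG00000027313) and Fgf21 (ENSMUSG00000030827), which are known targets of ATF4; and Hspa5 (ENSMUSG00000026864) and Herpud1 (ENSMUSG00000031770), which encode proteins of the endoplasmic reticulum (ER).

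RNA was sequenced from the livers of 40 male C57BL/6 mice with no engineered alleles named in the labels. Mice received sesame oil vehicle or the same oil with TCDD by gavage every 4 days, 7 times in all. The study ran for 28 days, from postnatal day 30 to day 58. TCDD, a chlorinated dioxin, is a persistent ligand of the aryl hydrocarbon receptor (AhR). Each of the 8 groups held 5 mice. Besides vehicle, the low doses were 0.03, 0.1 and 0.3 μg/kg, the middle doses 1 and 3 μg/kg, and the high doses 10 and 30 μg/kg. Each library came from 1 mouse, and every group shared the vehicle oil, the sex, the age and the single time point. Libraries held 15.5 to 21.0 M counts in genes (median 17.5 M). All 80 pairs of replicates differed beyond counting noise (chi-square per degree of freedom at least 10.2). The hepatocyte markers Alb, Ttr, Apoa1, Hnf4a, Cps1 and Ass1 were present in every group. Levels are given as CPM (counts of a gene per M counts of its library) after TMM scaling of the library sizes.

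The integrated stress response starts when a kinase phosphorylates the translation factor eIF2, which lowers protein synthesis in general while raising translation of ATF4. ATF4 then induces genes of amino acid supply and, with CHOP (the product of Ddit3), genes such as Trib3 and Chac1. The unfolded protein response senses misfolded protein in the ER through PERK, IRE1 and ATF6 and raises the chaperones and degradation factors of that compartment. Fgf21 encodes a liver hormone of fasting and nutrient stress. Much of this control acts on translation, on splicing of Xbp1 and on cleavage of ATF6, none of which counts per gene can show.

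The promoters of the 10 genes were compared in RefSeq windows from 250 bases before to 50 bases after the transcription start (assembly GRCm38.p6, 1 window for each gene), since the members divide by the elements they hold. The C/EBP-ATF response element, searched as TGATGNAA on both strands, lay in the windows of 6 of 10 members (Atf3, Asns, Trib3, Chac1, Fgf21 and Herpud1) and in 3.97% of all 32851 windows. The ER stress response element (ERSE; CCAAT, 9 bases, then CCACG) lay in that of Hspa5 and in 0.119% of all windows. Its shorter form ERSE-II (ATTGG, 1 base, then CCACG) lay in that of Herpud1 and in 0.0365% of all windows. The stretches around these matches are given in the direction of the gene, with the matched element in capitals.
Atf3: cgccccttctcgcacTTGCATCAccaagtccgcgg
Chac1: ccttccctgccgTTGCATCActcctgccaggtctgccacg
Fgf21: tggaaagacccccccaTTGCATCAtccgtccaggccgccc
Asns: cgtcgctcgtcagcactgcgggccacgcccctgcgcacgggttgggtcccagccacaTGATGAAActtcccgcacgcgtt
Herpud1: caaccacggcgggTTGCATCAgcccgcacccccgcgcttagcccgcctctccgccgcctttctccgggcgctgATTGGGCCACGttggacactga
Hspa5: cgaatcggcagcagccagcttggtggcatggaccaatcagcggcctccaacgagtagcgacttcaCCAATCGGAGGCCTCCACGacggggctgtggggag
Trib3: tagctcaggtTTACATCAgccgggc

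The Atf3 stretch lies at chr1:191183424-191183458 (minus strand), that of Chac1 at chr2:119351037-119351076 (plus strand), that of Fgf21 at chr7:45615606-45615645 (minus strand) and that of Asns at chr6:7693210-7693289 (minus strand). The Herpud1 stretch lies at chr8:94386304-94386398 (plus strand) and that of Hspa5 at chr2:34771960-34772059 (plus strand). These 6 stretches lie upstream of the start. The Trib3 stretch, at chr2:152344032-152344056 (minus strand), lies in the transcribed part, where its element spans bases 15 to 22 from the start. In the Atf3, Chac1, Fgf21, Herpud1 and Trib3 windows the element reads on the opposite strand, and in that of Asns it reads on the strand shown, from base -23 to base -16. Herpud1 holds a C/EBP-ATF element (-112 to -105) and an ERSE-II (-52 to -42) in the same window. No window held the UPRE (TGACGTGG, in 0.676% of all windows) or the CRE (TGACGTCA, in 1.79%). The core of the dioxin response element (GCGTG) lay in 9 of 10 windows, all but that of Xbp1, and in 32.4% of all windows. A match describes letters in the window and is no evidence of binding, and the windows of Atf4, Ddit3 and Xbp1 held none of the first 3 elements.

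Of the 10 genes, 6 were called at the highest dose, in both directions. At 30 μg/kg, Fgf21, Atf3, Asns and Trib3 were higher than in vehicle, Hspa5 and Herpud1 were lower, and Atf4, Ddit3, Xbp1 and Chac1 were not called. A call needed a fold change of at least 1.5 and an adjusted p under 0.05 in the quasi-likelihood test of edgeR, with Benjamini-Hochberg adjustment over all genes tested. In bulk liver, fewer cells of a type and less RNA per cell cannot be told apart. No member was called at 0.03 or 0.1 μg/kg, where 0.0195% and 0.0976% of all tested genes were called and no member had an unadjusted p under 0.05. At 0.3 μg/kg no member was called either, beside 0.468% of all genes. An unadjusted p under 0.05, a looser threshold, was met by 5 members. The share of all genes that met this looser threshold was not computed for any comparison, so the 5 cannot be set against it. At 1 μg/kg 1 member was called lower, Hspa5, beside 0.637% of all genes. At 3 μg/kg 2 were called higher, Fgf21 and Chac1, beside 4.53% of all genes. At 10 μg/kg 4 were called higher (13.6% of all genes) and 1 lower (8.13%). At 30 μg/kg the same 4 were called higher, Fgf21, Atf3, Asns and Trib3 (23.2% of all genes), and 2 lower (18.9%). The 7 comparisons with the same 5 vehicle mice are not independent of each other.

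**Figure D1:**
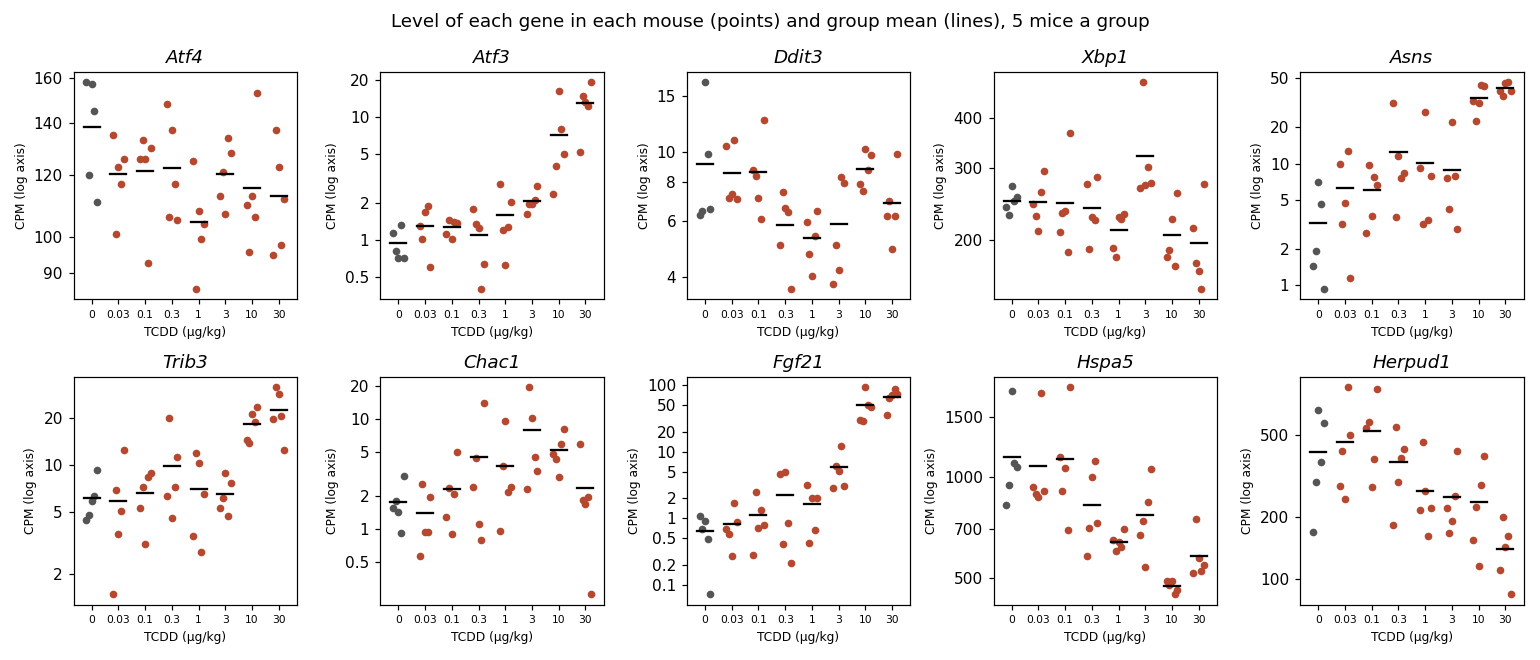
CPM of the 10 genes on a log axis (y) against TCDD dose in μg/kg (x; 0 is vehicle). Points are mice, 5 a group, and lines are group means. Fgf21, Asns and Trib3 step up between 3 and 10 μg/kg, Hspa5 and Herpud1 decline, and Atf4 stays between 85.7 and 158 CPM in all 40 mice.

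Atf4, the factor at the centre of the integrated stress response, had the smallest range of group means among the 10 genes. Its level was 158, 120, 157, 145 and 111 CPM in the 5 vehicle mice, 110, 95.7, 113, 106 and 153 CPM at 10 μg/kg, and 94.9, 137, 123, 97.6 and 112 CPM at 30 μg/kg. These groups overlapped throughout. The log2 fold change was -0.26 ± 0.13 (SE; adjusted p = 0.129) at 10 μg/kg and -0.29 ± 0.13 (adjusted p = 0.0549) at 30 μg/kg, and it was 0.20 at 30 μg/kg when libraries were scaled to total counts alone. That scaling moved the median of all tested genes at 30 μg/kg from 0.03 to 0.52, so Atf4 lay below the median gene either way. Its lowest dose-group mean, 104 ± 14.3 CPM (SD, n = 5), was at 1 μg/kg.

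Xbp1, whose spliced mRNA encodes the effector of IRE1, had 241, 230, 271, 249 and 255 CPM in vehicle mice, 269, 490, 273, 303 and 276 CPM at 3 μg/kg and 214, 175, 167, 151 and 275 CPM at 30 μg/kg. It peaked at 3 μg/kg, where 4 of 5 mice lay above the highest vehicle mouse and 1 of them, at 490 CPM, stood far above the rest. The log2 fold change from vehicle was 0.37 ± 0.17 (adjusted p = 0.179) at 3 μg/kg and -0.34 ± 0.17 (adjusted p = 0.0826) at 30 μg/kg, and the latter was 0.14 with total count scaling. Between 3 and 10 μg/kg Xbp1 fell by 0.65 on the log2 scale (SE 0.17, adjusted p = 0.0108), and the groups did not overlap. Without the mouse at 490 CPM the fall was no longer called (-0.45, adjusted p = 0.0782).

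Ddit3 encodes CHOP, a factor linked to cell death under prolonged ER stress. Its level was 6.27, 6.47, 16.6, 9.79 and 6.59 CPM in vehicle mice, 7.87, 7.47, 10.2, 8.71 and 9.78 CPM at 10 μg/kg, and 6.25, 6.99, 4.92, 6.23 and 9.82 CPM at 30 μg/kg. The third vehicle mouse was the highest of all 40, and 3 of 5 mice at 30 μg/kg, but none at 10 μg/kg, lay below the lowest vehicle mouse. The lowest means were at 0.3, 1 and 3 μg/kg (5.84 ± 1.48, 5.32 ± 0.978 and 5.87 ± 2.12 CPM, SD, n = 5), with log2 fold changes of -0.65, -0.78 and -0.64 that did not pass the adjusted threshold (edgeR adjusted p = 0.481, 0.0764 and 0.104). At 10 μg/kg the change was -0.06 ± 0.25 on the log2 scale, 0.16 with total count scaling, and turned to 0.27 without the third vehicle mouse. At 30 μg/kg it was -0.42 ± 0.25 (adjusted p = 0.149), or 0.06 with total count scaling, and it was called lower without the fifth 30 μg/kg mouse (-0.61, adjusted p = 0.0445). Counts of Ddit3 may be incomplete, since its exons share 10.9% of their length with other annotated genes in GENCODE M21. Summing the strand columns gave 36.4% more counts than the unstranded column. Whether these added reads came from Ddit3 or from an overlapping gene cannot be told. For the other 9 members this gain was at most 0.222%.

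Atf3, an early stress factor that ATF4 and other signals induce, rose at the highest doses. It had 1.14, 0.809, 0.712, 1.33 and 0.716 CPM in vehicle mice, 1.63, 1.97, 1.95, 2.10 and 2.75 CPM at 3 μg/kg, 2.35, 4.01, 16.3, 8.01 and 4.95 CPM at 10 μg/kg and 5.18, 14.8, 13.3, 12.3 and 19.1 CPM at 30 μg/kg. All mice at these 3 doses lay above all vehicle mice, and the 10 μg/kg group spread most, from 2.35 to 16.3 CPM. Atf3 was 7.48-fold higher at 10 μg/kg (log2 fold change 2.90 ± 0.42, SE, adjusted p = 1.14e-06) and 13.6-fold higher at 30 μg/kg (3.76 ± 0.43, adjusted p = 1.34e-09). At 3 μg/kg its log2 fold change of 1.13 ± 0.43 did not pass (adjusted p = 0.0938). Its own window holds a C/EBP-ATF element, given above. The 2 genes with the most similar profile over 40 libraries were Hmox1, the inducible heme oxygenase, and Mmp12, a macrophage elastase (Pearson r = 0.92 for each, a description over libraries that share the dose).

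**Figure D2:**
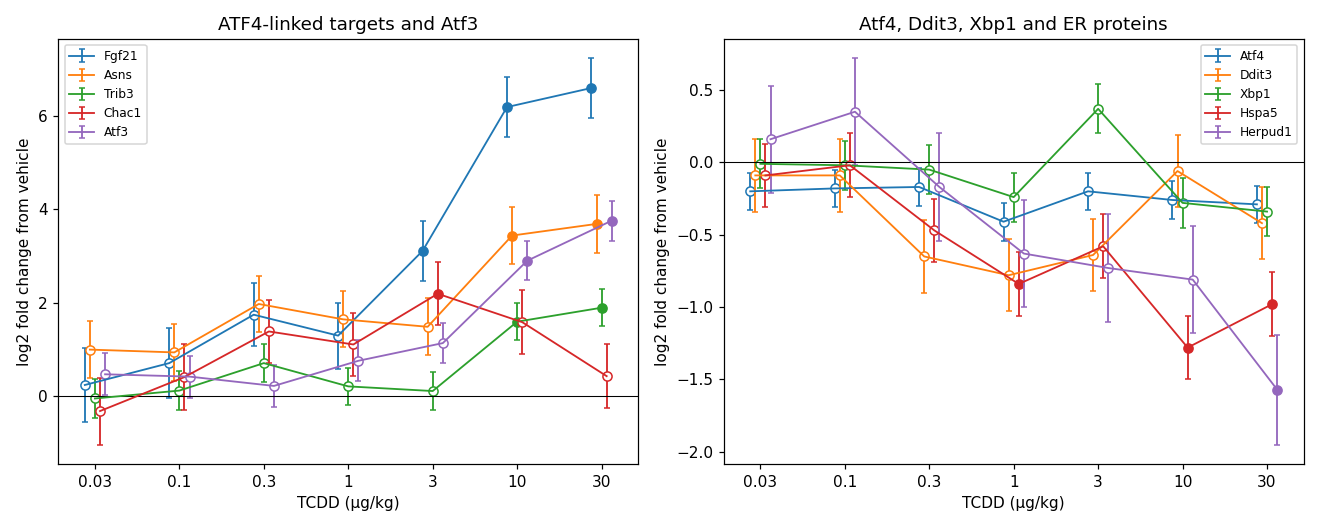
Log2 fold change from vehicle (y, with SE of the fit) against TCDD dose in μg/kg (x). Filled points were called (adjusted p under 0.05 and at least 1.5-fold) and open points were not. Fgf21 reaches 6.20 at 10 μg/kg. Chac1 is highest at 3 μg/kg, where mouse 2 had 19.3 CPM and the others 2.30 to 10.1 CPM, and is at 0.42 at 30 μg/kg.

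Fgf21 showed the largest fold change of the 10 genes. It had 1.09, 0.684, 0.906, 0.49 and 0.0716 CPM in vehicle mice, 2.84, 6.21, 5.15, 12.1 and 3.07 CPM at 3 μg/kg, 30.4, 29.3, 92.8, 50.7 and 47.6 CPM at 10 μg/kg and 35.2, 65.5, 71.9, 86.8 and 73.5 CPM at 30 μg/kg. Every mouse from 3 μg/kg up lay above every vehicle mouse, and the 3 and 10 μg/kg groups did not overlap. The lowest vehicle library held 1 Fgf21 read, which is under the floor of 3 counts, or 0.188 CPM in vehicle, so the baseline rests on 1 to 22 reads a library. Fgf21 was 8.64-fold higher at 3 μg/kg (log2 fold change 3.11 ± 0.64, adjusted p = 0.000965), 73.4-fold at 10 μg/kg (6.20 ± 0.64, adjusted p = 9.2e-10) and 97.5-fold at 30 μg/kg (6.61 ± 0.64, adjusted p = 3.57e-11). Per kilobase of exon, Fgf21 moved from 0.683 CPM in vehicle, the second lowest level of the 10 genes, to 70.0 CPM at 30 μg/kg, the second highest after Hspa5.

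Of 7 listed genes that act with FGF21 or regulate it, 4 were called lower, 3 were not called and 0 were called higher at 30 μg/kg (1 higher and 4 lower with total count scaling), with a median log2 fold change of -1.20 against 0.03 over all genes. Those lower were Klb, the β-Klotho co-receptor (-1.20 ± 0.21), the receptor Fgfr4 (-1.27 ± 0.17), and the regulators Ppara (-1.87 ± 0.21) and Mlxipl, which encodes ChREBP (-2.54 ± 0.17). Ppara, the receptor through which fasting induces Fgf21, declined from 67.8 ± 9.86 CPM in vehicle to 18.6 ± 9.15 CPM at 30 μg/kg (SD, n = 5).

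Asns, the enzyme that makes asparagine and a standard readout of ATF4, had 1.44, 1.93, 7.12, 4.69 and 0.931 CPM in vehicle mice, 32.6, 22.2, 31.3, 44.5 and 43.6 CPM at 10 μg/kg and 39.3, 35.9, 45.5, 46.6 and 39.7 CPM at 30 μg/kg. The 2 high-dose groups lay entirely above vehicle and were 10.9-fold (log2 fold change 3.44 ± 0.61, adjusted p = 3.03e-05) and 12.9-fold higher (3.69 ± 0.62, adjusted p = 3.34e-06). Below 10 μg/kg the level differed widely between mice of a group. At 0.3 μg/kg the 5 mice had 31.6, 3.65, 11.6, 7.56 and 8.34 CPM, and the log2 fold change of 1.97 ± 0.60 did not pass (adjusted p = 0.212). The coefficient of variation was 81.3% in vehicle, 87.8% at 0.3 μg/kg and 10.8% at 30 μg/kg, where the 5 mice were closest to each other.

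Trib3, a pseudokinase that restrains AKT and ATF4, had 4.43, 4.79, 5.83, 6.30 and 9.24 CPM in vehicle mice, 14.4, 13.8, 21.3, 19.0 and 23.5 CPM at 10 μg/kg and 19.8, 31.5, 28.8, 20.5 and 12.4 CPM at 30 μg/kg. Both groups lay above vehicle without overlap. Trib3 was 3.02-fold higher at 10 μg/kg (log2 fold change 1.59 ± 0.40, adjusted p = 0.00195) and 3.71-fold at 30 μg/kg (1.89 ± 0.40, adjusted p = 0.000117). At 3 μg/kg it was at 0.10 ± 0.41 (adjusted p = 0.922), with 5.32, 6.15, 8.85, 4.66 and 7.62 CPM in its mice.

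Chac1, which degrades glutathione, had its highest mean at 3 μg/kg, as Xbp1 did. The same mouse, mouse 2, was the highest of that group for both genes (19.3 CPM of Chac1 and 490 CPM of Xbp1). It had 1.54, 1.80, 1.42, 0.909 and 3.01 CPM in vehicle mice, 2.30, 19.3, 10.1, 4.48 and 3.33 CPM at 3 μg/kg, 4.8, 4.29, 2.97, 5.89 and 8.11 CPM at 10 μg/kg and 5.92, 1.83, 1.68, 1.95 and 0.253 CPM at 30 μg/kg. The 3 μg/kg group overlapped vehicle in 1 mouse, and the 30 μg/kg group spanned it. Chac1 was 4.56-fold higher at 3 μg/kg (log2 fold change 2.19 ± 0.68, adjusted p = 0.0309), 3.00-fold at 10 μg/kg (1.58 ± 0.68, adjusted p = 0.0696, not called, but called at 1.77, adjusted p = 0.0343, with total count scaling) and 1.33-fold at 30 μg/kg (0.42 ± 0.68, adjusted p = 0.632). The call at 3 μg/kg was lost in 6 of 10 fits that left out 1 library (vehicle mice 1 to 4 and 3 μg/kg mice 2 and 3), and the log2 fold change was 1.54 (adjusted p = 0.175) without the mouse at 19.3 CPM. That value lies below the 1.58 found at 10 μg/kg with all libraries, so the peak of Chac1 at 3 μg/kg rests on that mouse. The direction at 30 μg/kg turned to -0.27 without the mouse at 5.92 CPM. The difference between 30 and 10 μg/kg was -1.17 ± 0.65 and was not called (adjusted p = 0.173).

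Hspa5 encodes BiP, the main ER chaperone and a classical target of the unfolded protein response, and it was the most abundant member. It had 821, 947, 1790, 1100 and 1070 CPM in vehicle mice, 647, 601, 640, 617 and 701 CPM at 1 μg/kg, 491, 475, 490, 447 and 462 CPM at 10 μg/kg and 518, 750, 574, 523 and 547 CPM at 30 μg/kg. Every mouse at these 3 doses lay below every vehicle mouse. Hspa5 fell 1.79-fold at 1 μg/kg (log2 fold change -0.84 ± 0.22, adjusted p = 0.0195), 2.42-fold at 10 μg/kg (-1.28 ± 0.22, adjusted p = 1.72e-05) and 1.97-fold at 30 μg/kg (-0.98 ± 0.22, adjusted p = 0.000231). At 3 μg/kg the change of -0.58 ± 0.22 was not called (adjusted p = 0.0848). The call at 1 μg/kg was lost without the vehicle mouse at 1790 CPM (-0.62, adjusted p = 0.13), and that at 30 μg/kg with total count scaling (-0.47, adjusted p = 0.0535). The spread between mice also differed between groups, with a coefficient of variation of 32.9% in vehicle, 5.96% at 1 μg/kg and 3.98% at 10 μg/kg, a description that was not tested.

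Herpud1 encodes an ER membrane protein of ER-associated degradation (ERAD). It had 169, 297, 661, 371 and 571 CPM in vehicle mice, 155, 225, 116, 286 and 396 CPM at 10 μg/kg and 110, 199, 143, 162 and 84.1 CPM at 30 μg/kg. At 30 μg/kg 4 of 5 mice lay below the lowest vehicle mouse and 1 lay within the range of vehicle. The gene fell 2.96-fold at 30 μg/kg (log2 fold change -1.57 ± 0.38, adjusted p = 0.000535). At 10 μg/kg the change of -0.81 ± 0.37 was not called (adjusted p = 0.0914), and it passed when the order of the library titles was in the model at -0.91 (adjusted p = 0.0157), and without vehicle mouse 1 or 10 μg/kg mouse 5 (-1.01 and -1.08, adjusted p = 0.0371 and 0.0321). Its window, like those of Atf3, Asns, Trib3, Fgf21 and Chac1, holds a C/EBP-ATF element. Herpud1 moved in the direction opposite to the first 4 of these genes, and Chac1 was not called at 30 μg/kg.

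Exact 2-sided permutation tests of log2 CPM, which do not use the count model, were run for the 10 genes at 10 and 30 μg/kg. With 5 mice against 5 the smallest p they can give is 0.00794. Fgf21, Asns, Atf3, Trib3 and Hspa5 reached it at both doses (adjusted to 0.0159 over 20 tests). Herpud1 had an exact p of 0.0159 at 30 μg/kg and 0.135 at 10 μg/kg, and Chac1 had 0.0159 at 10 μg/kg and 0.992 at 30 μg/kg. Groups that did not overlap with vehicle were found at 1 μg/kg for Hspa5, below (3.13% of all genes), and at 3 μg/kg for Atf3 and Fgf21, above (5.23%). No overlap was found upward for 4 members at 10 μg/kg (12.9% of all genes) and at 30 μg/kg (19.7%), and downward for 1 member, Hspa5, at 10 μg/kg (10.1%) and at 30 μg/kg (17.9%).

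The steps between neighbouring doses differed between the members. Herpud1, called at 30 μg/kg, was at -0.09 ± 0.37 from 3 to 10 μg/kg (adjusted p = 0.933), and Fgf21 was at 3.11 from vehicle to 3 μg/kg and at 3.09 from 3 to 10 μg/kg. From 1 to 3 μg/kg no member was called (0.0585% of all genes), with an unadjusted p under 0.05 for 2, Fgf21 and Xbp1. From 3 to 10 μg/kg 4 members rose, beside 4.43% of all genes, and 2 fell, beside 2.34%. Those that rose were Fgf21 (8.50-fold, log2 3.09 ± 0.50), Asns (3.91-fold, 1.97 ± 0.56), Atf3 (3.42-fold, 1.77 ± 0.39) and Trib3 (2.82-fold, 1.5 ± 0.40), and those that fell were Hspa5 (1.62-fold, log2 -0.70 ± 0.22) and Xbp1 (1.57-fold). The fall of Hspa5 had an adjusted p of 0.0339 and was lost without any of the 5 mice at 10 μg/kg and without 3 μg/kg mouse 4 or 5 (adjusted p = 0.0526 to 0.122). The rise of Asns (adjusted p = 0.0201) was lost without 3 μg/kg mouse 1, 2 or 5 (adjusted p = 0.0515 to 0.0579). From 10 to 30 μg/kg no member was called, beside 21.1% of all genes, and 2 had an unadjusted p under 0.05, Atf3 (0.86 ± 0.36, adjusted p = 0.0646) and Herpud1 (-0.75 ± 0.37, adjusted p = 0.12). Without 30 μg/kg mouse 1, 2 members were called at this step, and without 10 μg/kg mouse 3, 1 was. A slope over the 8 ordered groups passed for 5 members upward (31.5% of all genes) and 2 downward (26.1%). The upward slopes per dose step on the log2 scale were 1.12 ± 0.08 for Fgf21, 0.53 ± 0.05 for Atf3, 0.48 ± 0.06 for Asns, 0.27 ± 0.05 for Trib3 and 0.24 ± 0.09 for Chac1. The downward slopes were -0.17 ± 0.03 for Hspa5 and -0.24 ± 0.04 for Herpud1. Atf4 (adjusted p = 0.0576), Ddit3 (0.149) and Xbp1 (0.281) had no slope that passed.

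The pathway genes around the members were grouped into 11 lists, and their counts at 30 μg/kg stand beside 23.2% of all genes called higher and 18.9% called lower. Counts at 10 μg/kg stand beside 13.6% and 8.13%. Of 24 ATF4-linked genes beyond the members, 15 were called higher and 1 lower (median log2 fold change 1.34, all genes 0.03), and at 10 μg/kg 15 were higher and 0 lower. At 3 μg/kg 3 were called higher, beside 4.53% of all genes. The serine pathway enzymes Psat1 and Phgdh rose from 0.77 ± 0.197 to 56.4 ± 26.5 CPM and from 0.134 ± 0.145 to 2.54 ± 1.52 CPM (SD, n = 5; log2 6.17 ± 0.44 and 4.15 ± 0.85, SE). The vehicle mean of Phgdh lay under the floor of 0.188 CPM, so its fold change is imprecise. Aldh18a1 of proline synthesis rose by 2.91 ± 0.27 and the arginine transporter Slc7a1 by 2.73 ± 0.37. Slc7a11, the cystine transporter, had 0 counts in every vehicle mouse and reached 142 ± 125 CPM at 30 μg/kg, at least 755-fold higher than the floor of 3 counts a library. Gpt2, an alanine aminotransferase, was lower (-1.16 ± 0.13). Of the 21 genes of this list with a promoter window, 4 held the C/EBP-ATF element (Nupr1, Vldlr, Pycr1 and Slc7a11).

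Of 12 cytosolic aminoacyl-tRNA synthetases, which charge tRNAs and include ATF4 targets, 3 were higher and 1 lower (median 0.21), beside 23.2% of all genes higher and 18.9% lower, so the share called higher was near that of all genes. Gars rose by 1.04 ± 0.10, Iars by 0.70 ± 0.10 and Yars by 0.67 ± 0.11, while Tars was at -1.40 ± 0.13. All 4 of these and Aars, which was not called (-0.27 ± 0.13), held the C/EBP-ATF element, 5 of the 8 with a window. Of 12 genes of eIF2, its kinases, its phosphatase and eIF2B, 2 were higher at 30 μg/kg (median 0.04), Eif2s1 (0.64 ± 0.09) and Ppp1r15a, the inducible phosphatase subunit GADD34 (0.64 ± 0.18), and 0 at 10 μg/kg.

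**Figure D3:**
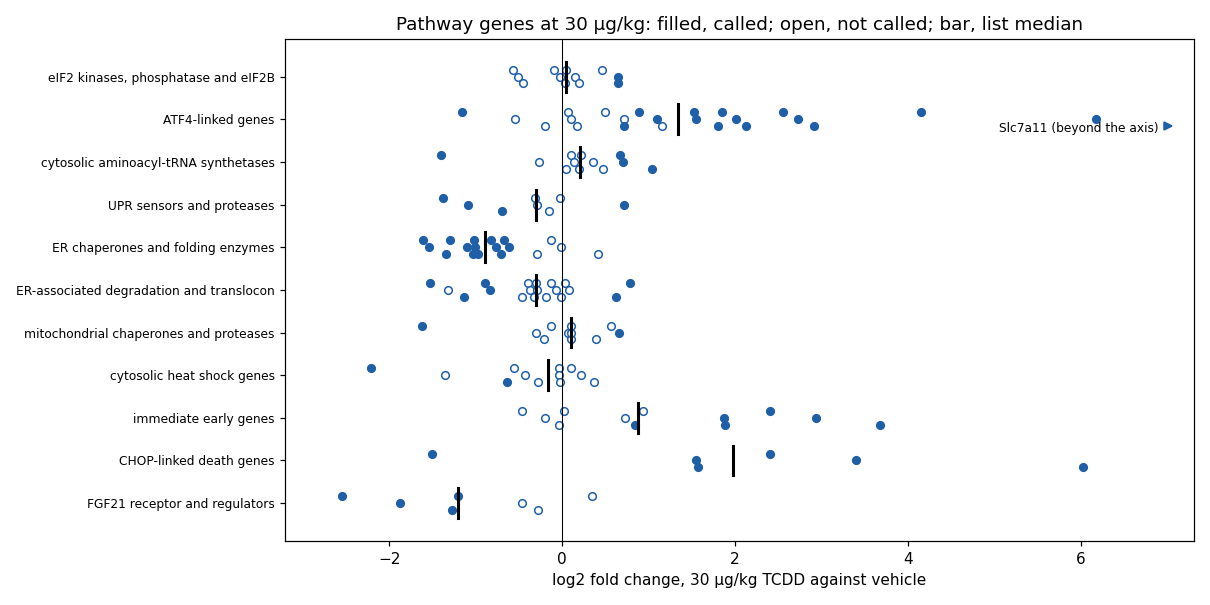
Log2 fold change at 30 μg/kg against vehicle (x) for the genes of 11 pathway lists (y). Filled points were called, open points were not, bars are list medians, and Slc7a11 lies beyond the axis. The ATF4-linked median is 1.34 and the ER chaperone median is -0.89.

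Of 18 ER chaperones and folding enzymes besides Hspa5, 14 were called lower at 30 μg/kg and 0 higher (median -0.89), and 13 were lower at 10 μg/kg (median -1.03). At 1 μg/kg 4 were lower, beside 0.637% of all genes. At 3 μg/kg 3 were lower, where 1038 of all 15373 genes were called in either direction, 697 of them higher. Lowest were the oxidase Ero1lb (-1.61 ± 0.20), the BiP cofactor Sdf2l1 (-1.54 ± 0.39), the disulfide isomerase Pdia4 (-1.34 ± 0.20), the nucleotide exchange factor Hyou1 (-1.30 ± 0.30) and Creld2 (-1.10 ± 0.45). With total count scaling 4 of the list were lower and 1 higher, and the median was -0.39 while that of all genes was 0.52. The ERSE letters lay in the windows of 7 of 15 genes with a window, Hsp90b1, Calr, Canx, Pdia6, Dnajc3, Creld2 and Ero1lb, of which all but Canx (-0.01 ± 0.08) were called lower.

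Of 8 genes of the sensors and their proteases, 3 were lower (median -0.30), Ern1, which encodes IRE1 (-1.38 ± 0.11), Creb3l2 (-1.09 ± 0.21) and the hepatic factor Creb3l3 (-0.70 ± 0.10), and Mbtps2, a protease of ATF6, was higher (0.72 ± 0.20). Of 19 ERAD and translocon genes 4 were lower, a share near that of all genes, and 2 higher (median -0.30). The lower ones were the ubiquitin ligase Syvn1 (-1.53 ± 0.32) with its partner Sel1l (-0.83 ± 0.15), Derl2 (-1.13 ± 0.10) and Os9 (-0.89 ± 0.13), and the higher ones were Derl1 (0.79 ± 0.11) and Erlec1 (0.62 ± 0.10). The medians of these last 2 lists were each 0.19 with total count scaling, below the median gene at 0.52.

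Stress lists outside the ER were mixed. Of 11 mitochondrial chaperones and proteases, Afg3l2 was higher (0.66 ± 0.08) and Clpx lower (-1.62 ± 0.13; median 0.10). Of 12 cytosolic heat shock genes, the small chaperone Hspb1 (-2.21 ± 0.29) and Dnaja1 (-0.64 ± 0.18) were lower and none was higher (median -0.16, or 0.32 with total count scaling). At 10 μg/kg 1 heat shock gene was called in each direction. Of 12 immediate early genes, the class of early response genes that Atf3 also belongs to, 6 were higher and 0 lower (median 0.88), led by Ier3 (3.68 ± 0.42), Fos (2.93 ± 0.77), Klf6 (2.40 ± 0.28), Fosb (1.88 ± 0.72) and Jun (1.87 ± 0.35). Of 6 genes linked to CHOP that promote or oppose cell death, 5 were higher and 1 lower (median 1.98). The count and the median thus do not stand for 1 direction of effect on cell death. The death receptor Tnfrsf10b rose from 0.229 ± 0.228 to 16.3 ± 4.54 CPM (log2 6.02 ± 0.49), Pmaip1 by 3.40 ± 0.55, Bcl2l11 by 2.40 ± 0.26, Bcl2, which opposes apoptosis, by 1.57 ± 0.35 and Casp12 by 1.55 ± 0.32, while Bbc3 was at -1.50 ± 0.29. The vehicle mean of Tnfrsf10b lay near the floor of 0.188 CPM, so its fold change is imprecise. Ddit3 itself was not called at any of the 7 doses in the edgeR fit of all 40 libraries.

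Markers of liver cell types moved with the highest doses. Their counts stand beside 13.6% of all genes called higher and 8.13% lower at 10 μg/kg, and 23.2% and 18.9% at 30 μg/kg. Summed over 6 hepatocyte markers, the level was 100000 to 124000 CPM in vehicle, 63800 to 104000 CPM at 10 μg/kg and 29500 to 62000 CPM at 30 μg/kg, with 3 and then 5 of 6 markers called lower. The 6 macrophage markers summed to 154 to 215 CPM in vehicle, 375 to 599 CPM at 10 μg/kg and 524 to 1360 CPM at 30 μg/kg, all 6 higher at both doses. Stellate cell markers were higher in 4 and 5 of 6 (170 to 275, 453 to 571 and 604 to 1350 CPM in the same groups) and endothelial markers in 4 and 3 of 5 (116 to 160, 205 to 225 and 191 to 254 CPM). Of 5 cholangiocyte markers 0 were called at 10 μg/kg, and 4 were higher and 1 lower at 30 μg/kg (37.2 to 48.4, 35.4 to 75.4 and 67.5 to 333 CPM). B and plasma cell markers, of which 6 of 7 were tested, were higher in 4 at both doses (12.8 to 22.8, 23.4 to 75.3 and 16.6 to 36.6 CPM). T cell markers were higher in 2 and 3 of 5 (1.06 to 2.29, 2.24 to 4.18 and 2.12 to 7.42 CPM). Neutrophil markers, of which 4 of 5 were tested, were higher in 3 and 4 (1.61 to 3.98, 8.18 to 14.0 and 15.3 to 50.1 CPM). Ly6g was at 0 in vehicle and at 10 μg/kg. The part of these changes in the results on the 10 genes was not tested. At 1 μg/kg, where Hspa5 was already lower, 2 of 6 hepatocyte markers were lower (69700 to 91300 CPM), beside 0.637% of all genes. At that dose 3 of 6 macrophage markers were higher, where 428 of all 15373 genes were called in either direction, 98 of them lower.

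Within dose groups some pairs of members varied together from mouse to mouse. Correlations of residuals, log2 CPM minus the mean of the dose group, are given over 40 libraries as a description, and these libraries share their scaling. The residuals also keep the pattern over library titles given below, which Trib3, Herpud1, Chac1 and, by less, Hspa5 share. Its part in the correlations was not tested. The highest were Ddit3 with Hspa5 (Pearson r = 0.68), Trib3 with Chac1 (0.60), Trib3 with Herpud1 (0.59), Hspa5 with Herpud1 (0.55), Asns with Fgf21 (0.54) and Atf4 with Fgf21 (0.52). These were the 6 of 45 pairs over 0.5, the median of all pairs was 0.07, and none was under -0.5. The mice with the most Hspa5 in the vehicle, 0.03 and 0.1 μg/kg groups had 1790, 1770 and 1840 CPM, against 693 to 1140 CPM in the other mice of these groups. The same 3 mice had the most Herpud1 of their groups (661, 854 and 841 CPM), the most Ddit3 (16.6, 10.9 and 12.6 CPM) and the most Creld2 (179, 154 and 216 CPM). In the groups above these the ranks were mixed. At 0.3 μg/kg the mouse with the most Hspa5 ranked 3 of 5 for Herpud1 and for Ddit3. The top Hspa5 mouse at 10 μg/kg ranked 4 for both. That at 1 μg/kg ranked 3 for Herpud1 and 1 for Ddit3. That at 3 μg/kg ranked 1 for Herpud1 and 2 for Ddit3, as did that at 30 μg/kg. For Creld2 these mice ranked 1, except at 10 μg/kg (rank 5). The part of the 3 extreme mice in the correlations was not tested. No mouse above 0.1 μg/kg had over 1110 CPM of Hspa5.

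**Figure D4:**
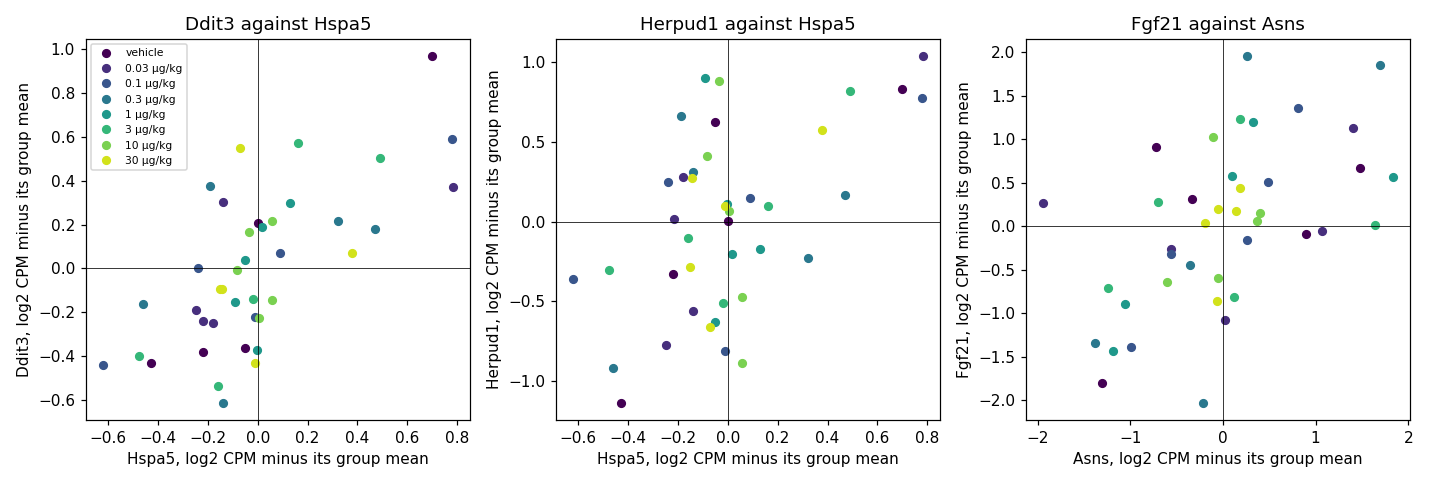
Residual log2 CPM (level in a mouse minus the mean of its dose group) for 3 pairs of genes, with 1 point for each of 40 mice coloured by dose. Ddit3 and Hspa5 have r = 0.68, Hspa5 and Herpud1 0.55, and Asns and Fgf21 0.54, and 3 mice of vehicle, 0.03 and 0.1 μg/kg stand apart at the right for Hspa5.

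Over all 15373 genes, the profiles most like each member were found in the same way, first over the levels and then over the residuals of 40 libraries. Hspa5 was most like Sdf2l1 and Hyou1 by level (r = 0.95 each) and Creld2 and Syvn1 by residual (0.92 and 0.91), which are genes of the same compartment. Asns was nearest to Mthfd2, a mitochondrial folate enzyme (0.86), and Dnaja2 (0.83) by level, and to Csad (0.71) and Serpina9 (0.64) by residual. Fgf21 was nearest to Tpx2 and Patj (0.93 each), then to Tigar and 4930458D05Rik (0.64 each). Herpud1 was nearest to Stbd1 and Plekhf1 (0.86 each), then to Cdip1 (0.79) and Plekhf1 (0.76).

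For Atf4 the nearest were Prkab1 (0.63) and Angptl8 (0.59) by level and Prelid3b (0.69) and 2810001G20Rik (0.65) by residual. For Ddit3 they were Agpat1 (0.72) and Txlna (0.70), then Ccdc134 (0.81) and Piga (0.80). For Trib3 they were Pcolce and Ctps2 (0.82 each), then Mknk2 (0.77) and Tnfrsf1b (0.75). For Chac1 they were Nipal3 (0.72) and Mms19 (0.70), then Arid5b (0.69) and Arhgef37 (0.68). For Xbp1 they were Thpo (0.80) and Wdr45b (0.75), then the cytokine signalling inhibitor Socs3 (0.75) and the NF-κB partner Bcl3 (0.74). By residual, Atf3 was nearest to Ctps (0.67) and Dot1l (0.65).

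The library titles number the mice in 2 runs, up to 27 and from 28, and the libraries of a dose in a run fall within 3 consecutive numbers, not all of which have a library here. What the numbers stand for is not given in the sources used here. The residual levels of Trib3, Herpud1, Chac1 and, by less, Hspa5 were lowest at the first of these 3 places in both runs. Herpud1 averaged -0.52, 0.05 and 0.31 (log2) at places 1, 2 and 3 in run 1 and -0.46, 0.26 and 0.40 in run 2. Trib3 averaged -0.56, 0.19 and 0.40 in run 1 and -0.37, 0.07 and 0.35 in run 2. Chac1 averaged -0.32, 0.53 and 0.46, then -0.63, -0.14 and 0.32. Hspa5 averaged -0.18, -0.09 and 0.03, then 0.01, 0.08 and 0.14.

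**Figure D5:**
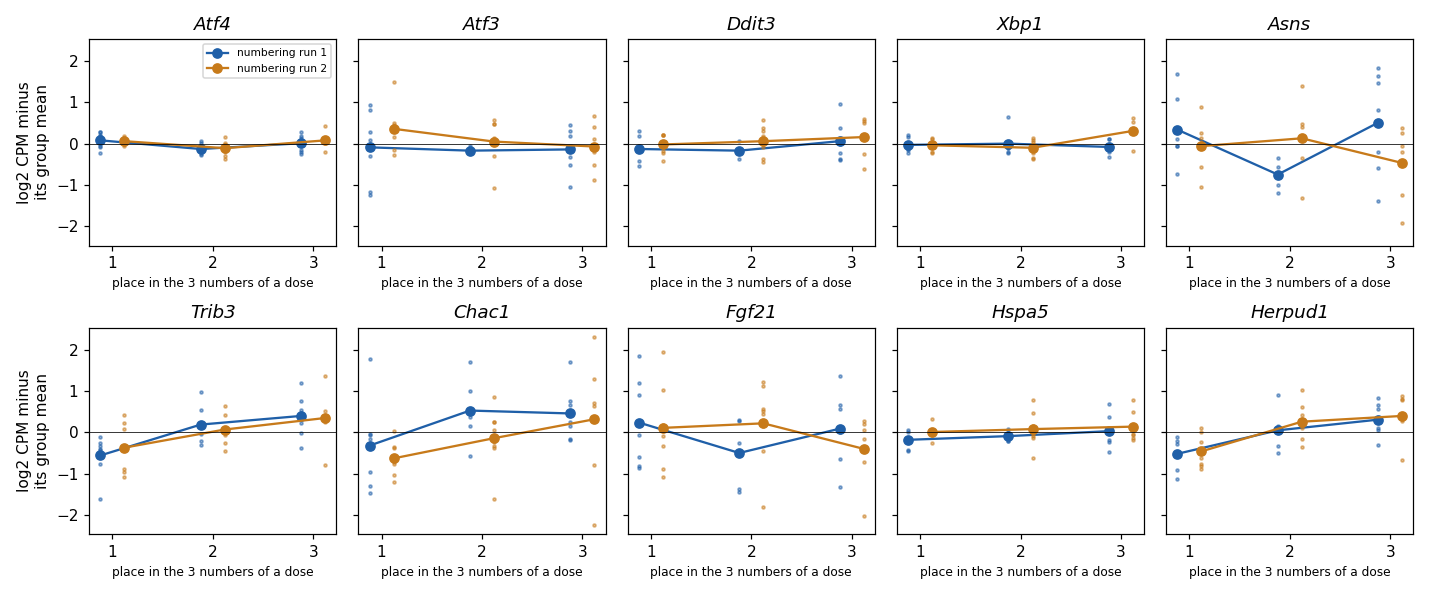
Residual log2 CPM (y) against the place of a library among the 3 title numbers of its dose (x), for 10 genes. Large points are means by numbering run and small points are mice. Herpud1 moves from -0.52 to 0.31 in run 1 and from -0.46 to 0.40 in run 2, and Trib3 shows a like course.

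Within the runs, each with 2 or 3 mice a group, the differences from vehicle at 30 μg/kg kept their direction for the called members. They were 5.60 and 7.86 (log2, run 1 and run 2) for Fgf21, 3.73 and 4.29 for Asns, 3.17 and 3.75 for Atf3, 2.30 and 1.33 for Trib3, -0.84 and -0.99 for Hspa5, and -1.12 and -1.88 for Herpud1. Chac1 was at 1.01 in run 1 and -0.69 in run 2. At 10 μg/kg the same values were 4.91 and 7.51 for Fgf21, 3.25 and 4.14 for Asns, 1.70 and 3.00 for Atf3, 1.48 and 1.46 for Trib3, -1.21 and -1.22 for Hspa5, -0.79 and -0.96 for Herpud1 and 1.46 and 1.58 for Chac1. With run and place in the model, Chac1 at 3 μg/kg was no longer called (1.73, adjusted p = 0.0723).

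Per kilobase of exon, the members spanned a wide range of levels. In vehicle the mean level was 271 CPM for Hspa5, 177 for Herpud1, 76.8 for Xbp1, 58.6 for Atf4, 5.34 for Ddit3, 2.88 for Trib3, 1.18 for Asns, 1.06 for Chac1, 0.683 for Fgf21 and 0.437 for Atf3. The 4 genes called higher at 30 μg/kg were thus among the 5 lowest in vehicle. At 30 μg/kg the order was Hspa5 (138), Fgf21 (70.0), Xbp1 (60.5), Herpud1 (59.9), Atf4 (47.9), Asns (15.1), Trib3 (10.6), Atf3 (6.00), Ddit3 (3.99) and Chac1 (1.42). Neighbours in this order were not tested against each other, and Xbp1 and Herpud1 in particular differed by less than their spread.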

How the data were processed

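RNA-Seq was run on livers of 40 mice, 5 in each of 8 groups taken from the labels. The authors deposited raw counts per gene from STAR for each library and a table of normalized log2 values. The submitters' processing notes name FastQC 0.11.7, Trimmomatic 0.39, STAR 2.7.3a and the builds GRCm39 and mm10, without roles. The annotation is not given in the sources used here. Strand columns split evenly (50.0% to 50.3%), so unstranded counts were used, in which a read over genes on opposite strands is ambiguous and counted for neither. Unmapped (2.47% to 11.3%), multimapping (5.24% to 7.43%), no-feature (3.34% to 7.36%) and ambiguous reads (4.84% to 5.9%) stayed out of library sizes.

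Counts were fitted with edgeR 4.0.16 in R 4.3.3 (minimum count 10, TMM, quasi-likelihood test over 8 groups). A prior count of 2 was used for log2 CPM. The fold threshold of 1.5 in the study's methods was kept, and an adjusted p under 0.05 took the place of its posterior probability. Fold changes carry SE and levels SD. The p-values test differences between groups, or slopes over dose, against the spread between these mice. The code was tested on simulated data. Alternatives used DESeq2 1.42.0, limma 3.58.1 on the deposited log2 values, other scalings, filters and covariates, and fits without each library. Promoter windows were from RefSeq and exon lengths from GENCODE M21. Floors cover counting error alone.

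The members and gene lists were chosen with earlier results of these data known. The text names up to 5 called genes of each list in each direction with the largest change at 30 μg/kg, and for each member the 2 most similar genes by level and by residual. Genes named for a promoter element were chosen by that element.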

Additional observations from a re-analysis of the deposited data

Results flagged for a closer look

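Among the 80 combinations of a member and a dose group, 4 had a mouse whose gap to the others exceeded Dixon's 95% critical value of 0.71 for 5 samples. Chance flags about 1 in 20 groups, which is 4 of 80. Hspa5 had 10.79 log2 CPM in mouse 4 at 0.03 μg/kg, against 9.76 to 9.87 in the others, and 9.55 in mouse 2 at 30 μg/kg, against 9.02 to 9.16. The first of these mice also had the most Herpud1, Ddit3, Sdf2l1, Hyou1, Creld2 and Syvn1 of its group (854, 10.9, 111, 625, 154 and 443 CPM). Xbp1 had 8.94 log2 CPM in mouse 2 at 3 μg/kg, against 8.07 to 8.24, and without this mouse the fall of Xbp1 from 3 to 10 μg/kg was -0.45 (adjusted p = 0.0782). The remaining case was Atf4 in mouse 4 at 0.1 μg/kg, with 6.54 against 6.98 to 7.06 log2 CPM.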

How the results depend on the processing

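Of 253 values recomputed under settings other than leaving out a library, over 23 results on single genes, 241 kept their direction and their side of the threshold, as did 218 of 230 without a library. With total count scaling the log2 fold changes at 30 μg/kg were 0.20 for Atf4, 0.06 for Ddit3 and 0.14 for Xbp1, and that of Ddit3 at 10 μg/kg was 0.16 (0.03 with limma). Leaving out 1 library gave -0.17 to 0.27 for Ddit3 at 10 μg/kg and -0.27 to 0.69 for Chac1 at 30 μg/kg. The members called at 1 μg/kg numbered 2 with DESeq2 and 0 to 2 without a library (2 without vehicle mouse 1, 0 without vehicle mouse 3). At 3 μg/kg they numbered 1 with run and order as covariates and with limma, and 1 to 3 without a library (1 without vehicle mouse 1, 2, 3 or 4 or 3 μg/kg mouse 2 or 3, 3 without 3 μg/kg mouse 5). From 10 to 30 μg/kg they numbered 1 with total count scaling and with run, and 0 to 2 without a library (2 without 30 μg/kg mouse 1, 1 without 10 μg/kg mouse 3). Of the lists at 30 μg/kg, total count scaling called 5 eIF2 genes, 10 tRNA synthetases, 5 ER chaperones and 7 mitochondrial genes. These lists hold 12, 12, 18 and 11 genes. That scaling called 7961 of all 15373 genes, against 6476 with TMM scaling, so more calls in a list are no result about that list. With no fold threshold 6 of 12 eIF2, 10 of 19 ERAD and 5 of 11 mitochondrial genes passed, beside 8522 of all 15373 genes. Run, or run and order, called 4 heat shock genes, beside 6441 and 6542 of all genes. A filter at a mean of 50 counts left 3 CHOP-linked genes called, beside 4272 of all genes that passed it. Without a library the eIF2 calls were 1 to 3 (1 without vehicle mouse 1 or 2 or 30 μg/kg mouse 4, 3 without vehicle mouse 4 or 5 or 30 μg/kg mouse 3) and the heat shock calls 1 to 4 (4 without vehicle mouse 1 or 30 μg/kg mouse 5, 1 without vehicle mouse 3 or 30 μg/kg mouse 2 or 3). The causes were not tested. No paired analysis was possible because the labels give no replicate numbers. Genes with few reads, such as Fgf21 and Atf3 in vehicle, have imprecise fold changes at this depth.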
